A study of Mus musculus with 6 samples.

Results

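A set of 10 genes that encode secreted liver proteins and apolipoproteins was followed in cultured mouse embryonic fibroblasts: Afp, Alb, Ttr, Apoe, Apoa1, Apoa2, Apob, Apoc1, Trf and Ahsg. Every transcript probe whose only annotated gene symbol was one of these names was taken, which gave 11 probes for 10 genes, of 34967 transcript probes and 18069 genes with such a probe on the array. Each gene had 1 probe except Ahsg, which had a brighter and a dimmer one. The genes were chosen by name and with the genotype difference and the spread within genotypes in these same arrays known, so both are given as a description and carry no p-value here.

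The study compared early-passage fibroblasts from embryos in which a gene-trap cassette interrupts Ing1 with fibroblasts from wild-type littermates, to find genes that depend on Ing1, a PHD-finger chromatin protein. There were 3 cultures of each genotype, labelled C4, C3 and B1 (Ing1-deficient) and H2, H3 and I2 (wild type). Each culture was grown from 1 embryo and read on its own 1-colour array. Which embryonic organs went into the cultures, the embryos' age, and which cultures share a litter are not given in the labels.

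Hepatocytes of the fetal liver secrete most plasma proteins, and the yolk sac makes many of the same ones. Alpha-fetoprotein (Afp) is the main plasma carrier protein before birth and is replaced by its neighbour on the chromosome, albumin (Alb), as the liver matures. Apolipoproteins hold lipoprotein particles together and guide them to receptors. ApoE differs from most of them in being made by many cells outside the liver, macrophages and glia among them.

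The cultures carried the features of fibroblasts. All 20 fibroblast marker genes had a good quality flag on all 6 arrays, and their summed level was 1695 to 1860 in deficient and 1429 to 1825 in wild-type cultures, in units of each array's median probe (normalized intensity, the scale of all levels here). The targeted gene, Ing1, read 1.38, 0.930 and 1.39 in C4, C3 and B1 against 11.7, 11.4 and 11.1 in H2, H3 and I2. A good flag was carried by 55.5% to 62.1% of transcript probes per array, and the median probe stood 18.8 to 25.4 intensity units above local background. Of 16 hepatocyte enzyme genes on the array, 9 had a good flag in no culture, 1 of them (Cyp3a16) being masked on all arrays and so not measured. Among 16 liver transcription factor genes, 6 had none (Hnf4a, Foxa3, Onecut1, Hhex, Nr5a2 and Nr1h4), while Foxa1, Cebpb, Prox1 and Gata4, which other tissues also express, had a good flag in all 6.

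The promoters of 4 members are shown because the levels of 3 of them, Afp, Alb and Ahsg, went up and down together from culture to culture, whereas Apoe followed another pattern. Each sequence is the 250 bases before the annotated start in RefSeq (GRCm38.p6), written along the gene's strand. They are Afp at chr5:90490464-90490713 (+), Alb at chr5:90460620-90460869 (+), Ahsg at chr16:22891765-22892014 (+) and the farthest upstream of 3 listed Apoe starts at chr7:19699189-19699438 (-). Capitals mark GTTAAT, a half-site of the liver factor HNF1, and CCAAT, the box bound by NF-Y and C/EBP proteins, on either strand.
Afp: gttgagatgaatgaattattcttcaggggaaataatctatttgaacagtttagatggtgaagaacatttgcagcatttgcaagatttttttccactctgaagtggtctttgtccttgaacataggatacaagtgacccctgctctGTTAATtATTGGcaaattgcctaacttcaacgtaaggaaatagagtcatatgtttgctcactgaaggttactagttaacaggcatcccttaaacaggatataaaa
Alb: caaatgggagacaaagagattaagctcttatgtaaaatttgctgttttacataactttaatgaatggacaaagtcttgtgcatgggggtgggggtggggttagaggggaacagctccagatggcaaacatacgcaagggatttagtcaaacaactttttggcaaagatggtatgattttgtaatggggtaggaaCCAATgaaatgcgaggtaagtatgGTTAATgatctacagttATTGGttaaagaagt
Ahsg: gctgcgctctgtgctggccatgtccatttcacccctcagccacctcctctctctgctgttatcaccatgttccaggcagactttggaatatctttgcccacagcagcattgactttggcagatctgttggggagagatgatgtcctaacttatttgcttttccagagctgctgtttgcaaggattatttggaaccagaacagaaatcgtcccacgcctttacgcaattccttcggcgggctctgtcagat
Apoe: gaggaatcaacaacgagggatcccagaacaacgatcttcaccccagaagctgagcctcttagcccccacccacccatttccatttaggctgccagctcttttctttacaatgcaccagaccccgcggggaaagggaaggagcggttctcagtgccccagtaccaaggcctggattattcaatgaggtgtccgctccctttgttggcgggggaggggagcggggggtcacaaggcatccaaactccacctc

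The Afp window held 1 GTTAAT, beginning 105 bases before the start, and 1 CCAAT on the opposite strand at 98 bases, so the 2 motifs were nearly adjacent. The Alb window held GTTAAT at 32 bases and CCAAT at 56 bases, with a further CCAAT on the opposite strand at 15 bases. No match to either motif was present in the Ahsg or the Apoe window shown. Among 32851 RefSeq promoters searched the same way, 6.43% held GTTAAT, 33.8% CCAAT and 2.3% both. The TATA box TATAAA, in 12.4% of promoters on either strand, was in the Afp window at 7 bases and not in that of Alb. Windows of 7 members were searched. Ttr was left out of the search, and no window was available for Apoc1 or Trf. The windows of Apoa1 and Apob held neither GTTAAT nor CCAAT, Apoa2 held CCAAT but not GTTAAT, and the third Apoe start had GTTAAT on the opposite strand at 172 bases. A match describes these letters and does not show that a factor binds.

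Genotypes did not overlap for 31.4% of all tested probes measured on every array, and for 11.3% with the deficient side lower. Apoe was the only tested member of this kind. Among deficient cultures C4 read 30.8, C3 20.2 and B1 15.2, while wild-type levels were 46.6 (H2), 45.4 (H3) and 42.2 (I2), each with a good flag. Every deficient culture lay below every wild-type culture, and the wild-type cultures lay close together. The means were 22.1 ± 7.93 in deficient and 44.7 ± 2.29 in wild-type cells (SD, n = 3 each), a log2 difference of -1.08 ± 0.24 (SE), or 2.11-fold lower. Among deficient cultures the highest was 2.02-fold above the lowest, against 1.1-fold among wild-type cultures. In such bulk samples, fewer cells that make Apoe and less Apoe RNA per cell cannot be told apart.

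**Figure D1:**
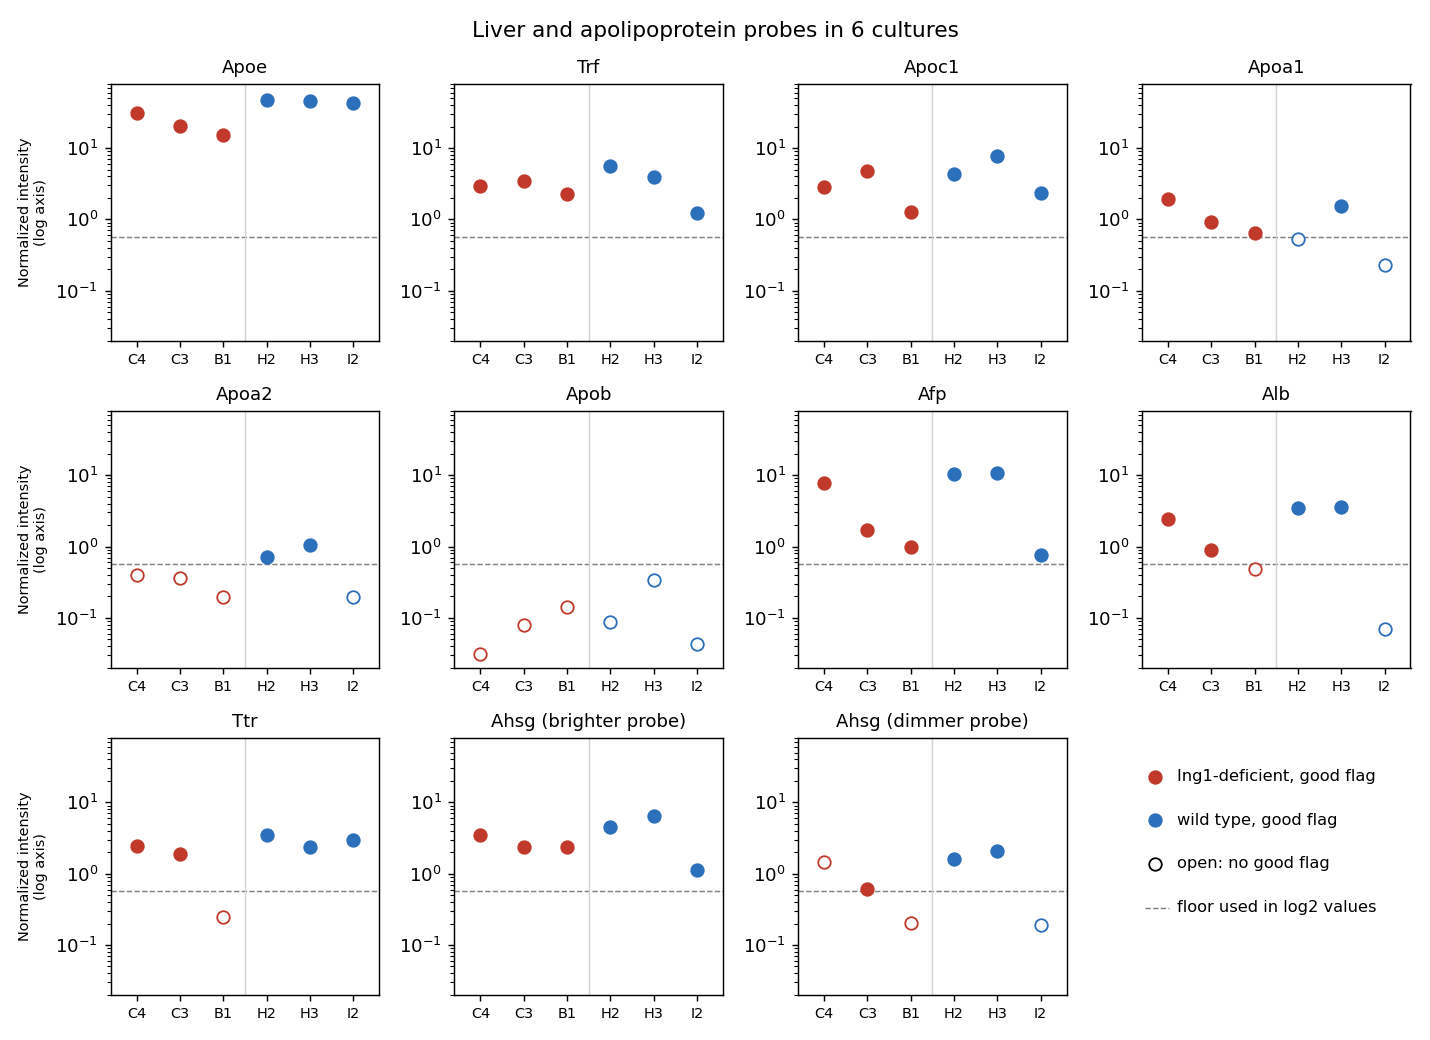
Normalized intensity (log axis, units of each array's median) of the 11 probes in each Ing1-deficient (red) and wild-type (blue) culture, with open circles where the spot had no good flag and a dashed line at the floor of 0.57. Apoe is the only tested one of these probes whose genotypes do not overlap, as is so for 31.4% of all tested probes measured on every array. Afp and Alb are high in C4, H2 and H3 and low in C3, B1 and I2.

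Apoc1, a small apolipoprotein whose gene lies beside Apoe and which inhibits lipoprotein uptake, read 2.83 in C4, 4.74 in C3 and 1.28 in B1, and 4.27 in H2, 7.76 in H3 and 2.36 in I2, all with a good flag. The genotypes overlapped, C3 lying above H2 and I2. The log2 difference was -0.73 ± 0.51, with means of 2.95 ± 1.73 and 4.8 ± 2.74 (SD, n = 3 each). Within a genotype Apoc1 did not rank the cultures as Apoe did: C3 and H3 were highest for Apoc1, C4 and H2 for Apoe.

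The genes around this pair behaved differently from Apoe. Tomm40, the next gene beyond Apoe and a subunit of the mitochondrial import pore, read 23.0, 18.9 and 19.3 in the deficient cultures against 10.1, 12.7 and 11.9 in the wild-type ones, in the order given above. It rose by 0.82 ± 0.16 (SE, limma adjusted p = 0.0312), opposite in sign to Apoe. With 1 array left out, this call and those of Rxra, Abcg1 and Crabp2 held without H3 and were lost without any other array. The Tomm40 call was also lost after quantile (0.69, limma adjusted p = 0.0526) and loess normalization (0.73, adjusted p = 0.0535). Nectin2, an adhesion receptor gene farther along, did not pass (0.11 ± 0.15, limma adjusted p = 0.692). Apoc4, on the other side of Apoc1, was below background on all arrays.

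The apolipoproteins of high-density lipoprotein and chylomicrons were dim. Apoa1, the main protein of high-density lipoprotein, read 1.92 in C4, 0.918 in C3 and 0.652 in B1 with good flags, and 1.54 in H3 with a good flag. In H2 and I2 it was not well above background, at 0.528 and 0.231. The genotypes overlapped (log2 difference 0.40 ± 0.46), and this was the only tested member with a higher mean in deficient cells, 1.16 ± 0.666 against 0.766 ± 0.685 (SD, n = 3 each). The probe entered the test only through its 3 good deficient spots.

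Apoa2, its partner on high-density lipoprotein, had no good spot in the deficient cultures, at 0.401, 0.366 and 0.194, and good spots in H2 and H3, at 0.710 and 1.03, but not in I2, at 0.196. Spots without a good flag cannot be ordered, so I2 cannot be placed against the deficient cultures. Whether the genotypes overlapped is therefore not known, and no fold difference is given. Apob, the scaffold of very-low-density lipoprotein, was below background in all 6 cultures, between 0.0314 and 0.342, and gives no difference.

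Trf encodes transferrin, the plasma iron carrier, which the liver and several other tissues make. It read 2.92 in C4, 3.43 in C3 and 2.25 in B1, and 5.55 in H2, 3.91 in H3 and 1.22 in I2, all with good flags. The wild-type cultures spanned the deficient ones on both sides, 4.55-fold from I2 to H2 against 1.52-fold among deficient cultures. The means were 2.87 ± 0.592 and 3.56 ± 2.19 (SD, n = 3 each) and the log2 difference -0.08 ± 0.47. Trf and Apoe, both known to be made outside the liver, therefore differed in pattern: I2 was the lowest culture for Trf and lay above every deficient culture for Apoe.

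Afp varied more within genotypes than between them. It read 7.79 in C4, 1.72 in C3 and 0.971 in B1, and 10.3 in H2, 10.6 in H3 and 0.771 in I2, with a good flag on all 6 arrays. C4, H2 and H3 were high and C3, B1 and I2 low, so each genotype held both kinds of culture. The highest culture was 8.02-fold above the lowest among deficient and 13.8-fold among wild-type cultures. The log2 difference was -0.90 ± 1.03, from means of 3.49 ± 3.74 and 7.23 ± 5.6 (SD, n = 3 each).

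The SD within genotypes on the log2 scale was 1.89 for Afp, and only 2 of 19572 tested probes with such an SD had a larger one (0.0102%). The median over these probes was 0.22. The values were 0.95 for the brighter Ahsg probe, 0.91 for Apoc1, 0.84 for Trf, 0.81 for Ttr, 0.81 for Apoa1 and 0.36 for Apoe, and 16.2% of probes exceeded that of Apoe. Leaving out I2 moved the Afp difference to -2.15 and leaving out B1 to -0.26.

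**Figure D2:**
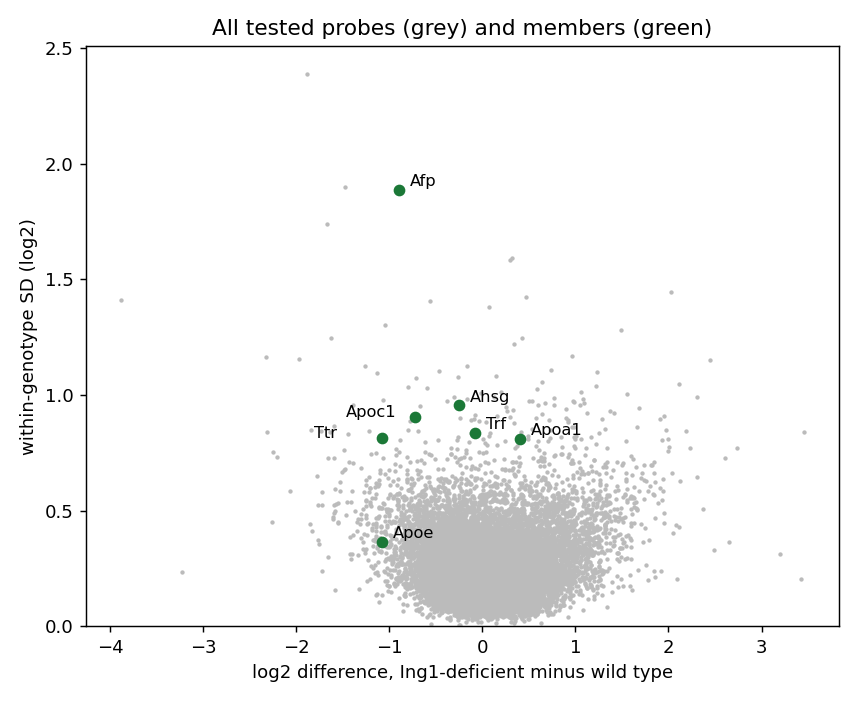
Log2 difference between genotypes (x axis) and SD within genotypes on the log2 scale (y axis) for every tested probe (grey) and the 7 tested member probes (green). Afp lies near the top at an SD of 1.89, Apoe at 0.36 with a difference of -1.08, and the other members lie between them in spread.

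Alb followed Afp culture by culture. It read 2.39 in C4 and 0.885 in C3 with good flags and 0.486 in B1 below background, and 3.48 in H2 and 3.60 in H3 with good flags and 0.0695 in I2 below background. The genotypes overlapped, the 4 cultures with good Alb spots had the same order as for Afp, and B1 and I2 were lowest for both genes. Alb was not tested, since neither genotype had 3 good spots, and its difference of floored values was -0.86. The other genes beside Alb and Afp did not show this order: Ankrd17, broadly expressed, had a good flag throughout (0.22 ± 0.16, limma adjusted p = 0.408), and Afm, which encodes the vitamin E carrier afamin, was below background on all arrays.

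Ahsg encodes fetuin-A, an inhibitor of mineral deposition abundant in fetal plasma. The brighter probe read 3.52 in C4, 2.37 in C3 and 2.34 in B1, and 4.48 in H2, 6.36 in H3 and 1.14 in I2, all with good flags. The highest wild-type culture was 5.56-fold above the lowest, against 1.5-fold in deficient cultures, and the wild-type values enclosed the deficient ones. The log2 difference was -0.25 ± 0.53. The dimmer probe, which was not tested, read 1.46, 0.616 and 0.206 in C4, C3 and B1 and 1.60, 2.09 and 0.190 in H2, H3 and I2, good in C3, H2 and H3, with the same 3 cultures on top.

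Ttr encodes transthyretin, which carries thyroid hormone and retinol-binding protein and is also made in the choroid plexus and yolk sac. It read 2.42 in C4, 1.88 in C3 and 0.250 in B1, the last below background, and 3.54 in H2, 2.34 in H3 and 2.92 in I2. It did not follow Afp: I2, the lowest culture for Afp, was above every deficient culture for Ttr. The genotypes overlapped only where C4 exceeded H3, and the log2 difference was -1.08 ± 0.46, with means of 1.51 ± 1.13 and 2.94 ± 0.601 (SD, n = 3 each). The probe entered the test only through its 3 good wild-type spots, and the size of the difference depends on B1 being set to the floor.

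**Figure D3:**
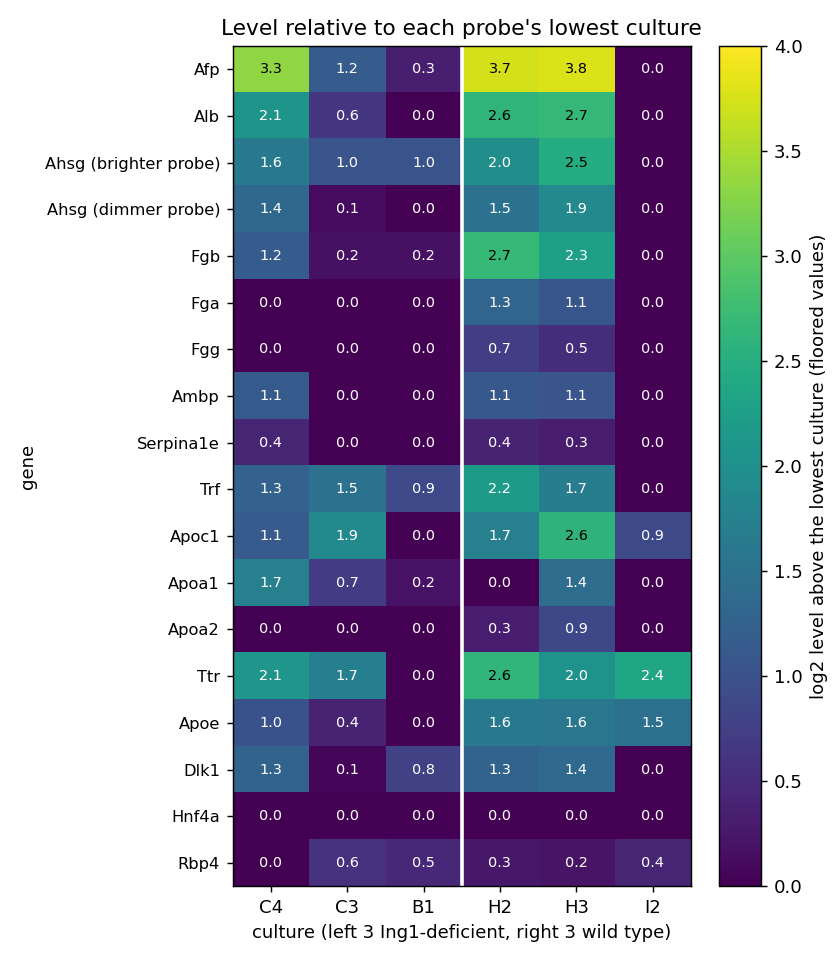
Log2 level of each gene in each culture above that gene's lowest culture, with values under the floor set to it (colour and printed number), deficient cultures left of the white line and wild-type cultures right of it. Afp, Alb, Ahsg and Ambp are highest in C4, H2 and H3, Ttr and Apoe keep a high level in I2, and Hnf4a is at the floor throughout.

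The Pearson r of log2 levels is given as a description over the 6 arrays, which share these few cultures and carry no test. With Afp it was 0.995 for Alb, 0.911 for the brighter and 0.975 for the dimmer Ahsg probe, and 0.805 for Trf. It was 0.674 for Apoc1, 0.562 for Apoe and 0.510 for Ttr. Apoe gave 0.872 with Ttr and 0.181 with Trf. Alb and the dimmer Ahsg probe were above the floor on only 4 arrays each and Ttr on 5, and floored values entered their r. The grouping proposed from cell source, with Apoe and Trf as genes of the fibroblasts and Afp and Ttr as genes of the liver, differed from the one in these levels, where Trf stood nearer Afp and Ttr nearer Apoe. An r over 0.9 with Afp was found for 0.141% of 13467 tested probes with 1 symbol, and with Apoe for 1.08%.

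The 5 other genes most like Afp were Xlr4c (r = 0.977), Pparg (0.955), Bpifb3 (0.949), Rgr (0.948) and Mt1 (0.944). Pparg in B1 and I2 and Bpifb3 in B1 read under the floor, so their r rests partly on floored values. Mt1, a metal-binding metallothionein, read 67.0, 59.0 and 46.2 in C4, C3 and B1 and 74.8, 70.6 and 38.9 in H2, H3 and I2. Those most like Apoe were Heph (0.981), which encodes an iron-oxidising ferroxidase, Gm11729 (0.979), F830208F22Rik (0.979), Tmem255b (0.978) and Mast2 (0.978). F830208F22Rik read 0.513 in B1, under the floor. Heph did not pass between genotypes (-0.24 ± 0.14, limma adjusted p = 0.324). Those most like Trf were Doc2g (0.981), Srsf4 (0.962), Emp3 (0.950), Ccdc138 (0.948) and Il3 (0.946). All these r values are over 6 arrays.

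Of the 11 member probes, 7 from 7 genes were tested, and 1, Apoe, was among the probes called between genotypes, where 6.57% of all tested probes were called, 1.63% lower and 4.94% higher. Before adjustment, a p under 0.05 was found for 2 of the 7, against 26.2% of all tested probes. Genotypes did not overlap for 1 of the 7, against 31.4% of all tested probes measured on every array and 11.3% with the deficient side lower. A difference below 0 was found for 6 of the 7, against 48.1% of all tested probes, whose median difference was 0.02. Nothing is read from these counts, because the members were taken with this contrast known and the filter on flags keeps probes through the genotype where they are brighter. The Apoe call was lost when C4, C3, B1, H2 or I2 was left out and held without H3, with differences from -1.35 to -0.84.

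**Figure D4:**
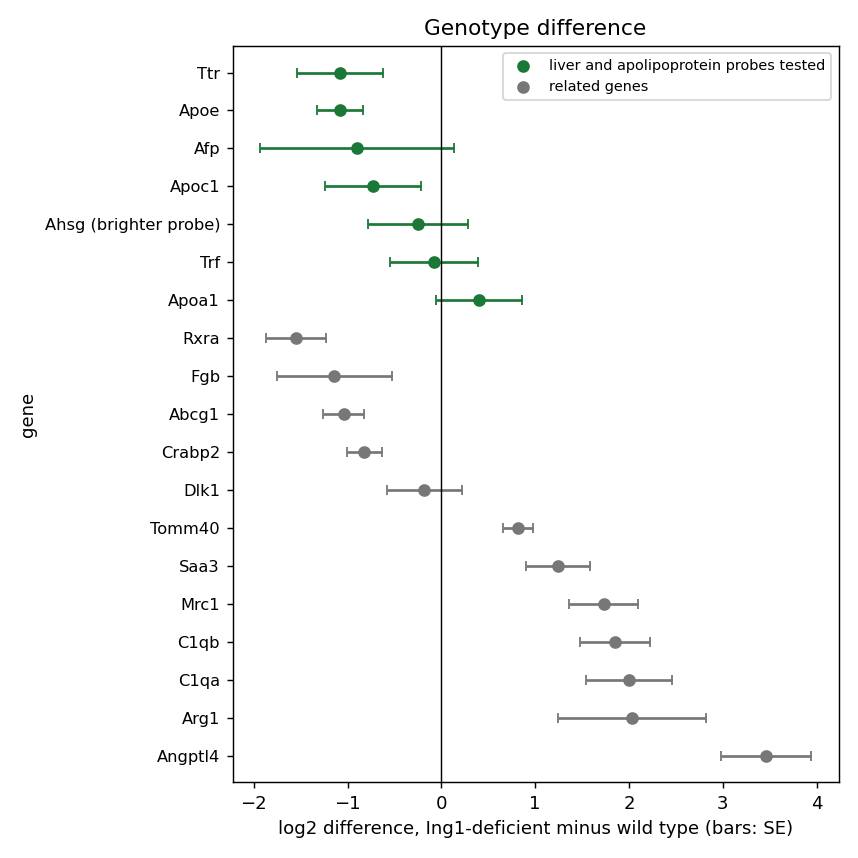
Log2 difference between genotypes (x axis, bars the SE of the fit) for the 7 tested member probes (green) and 12 other named genes (grey). Ttr, with B1 set to the floor, and Apoe share a difference of -1.08 with SE of 0.46 and 0.24. Afp has the widest bar, 1.03.

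Other plasma protein genes of the liver gave no call. Of 27 on the array, 16 had a good flag in no culture, and 2 of these (Serpina1d and Itih1) were masked on all arrays. In limma 4 were tested and 0 passed (0 also at an unadjusted p under 0.05), with a median difference of 0.15. Fgb, the fibrinogen beta chain, read 2.48, 1.25 and 1.25 in C4, C3 and B1 and 7.03, 5.30 and 1.10 in H2, H3 and I2 (-1.14 ± 0.61, limma adjusted p = 0.272). It was high in H2 and H3 and lowest in I2, as Afp was. Itih2, which binds hyaluronan, gave a log2 difference of 0.29 ± 0.18 (limma adjusted p = 0.349).

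Further members of that list were picked after their values were seen. Fga, the fibrinogen alpha chain, read 1.40 and 1.20 in H2 and H3 and at most 0.341 in the other cultures. Fgg, the gamma chain, read 0.954 and 0.815 there and at most 0.345 elsewhere. Ambp, the precursor of alpha-1-microglobulin, read 1.25 in C4, 1.22 in H2 and 1.18 in H3 and at most 0.247 elsewhere. Serpina1e, another plasma protein gene, read 0.756 in C4, 0.739 in H2 and 0.706 in H3 with good flags. It was below background elsewhere, at most 0.523. Some other members of the list did not share this order. Rbp4, the retinol carrier of plasma, read 5.08, 7.52 and 7.03 in C4, C3 and B1 and 6.05, 5.85 and 6.76 in H2, H3 and I2, lowest in C4. Hp, which encodes the haemoglobin-binding protein haptoglobin, read 2.03, 2.14 and 2.25 and then 1.75, 3.22 and 1.05. The median r with Afp over the 4 tested genes was 0.47, from 0.92 for Fgb to -0.77 for Rbp4. The summed level of the whole list came to 16.4, 17.8 and 15.9 in C4, C3 and B1 and 24.9, 23.9 and 15.4 in H2, H3 and I2.

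Hepatocyte enzymes gave no call. Their summed level ranged from 9.83 to 24.1 in deficient and from 8.6 to 12.7 in wild-type cultures, a range set by Arg1. A sum without Arg1 was added after the data were seen. The other 15 genes came to 7.3, 8.37 and 7.54 in C4, C3 and B1. In H2, H3 and I2 they came to 7.86, 8.24 and 8.06. Slc10a1 and Asgr1 gave much of this sum, and 9 of the 16 genes on the array had a good flag in no culture. Cyp3a16, masked on all arrays, added nothing to it. The sum therefore says little about the dim genes. Of the 4 tested, 0 passed in limma (1 at an unadjusted p under 0.05), with a median difference of 0.06. Arg1, an arginine-degrading enzyme that macrophages also make, read 2.52, 15.8 and 6.47 in C4, C3 and B1 and 4.88, 1.36 and 0.538 in H2, H3 and I2 (2.03 ± 0.79, limma adjusted p = 0.146), and Asgr1, a hepatocyte lectin, gave 0.28 ± 0.16 (adjusted p = 0.302). Whether liver cells in some cultures bear on the Afp pattern was not tested.

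Liver transcription factors gave 0 calls among 8 tested (1 at an unadjusted p under 0.05; median difference 0.11). The lowest p was for Nr0b2, which encodes the repressor SHP (-0.57 ± 0.19, limma adjusted p = 0.0964), then Gata6 (0.49 ± 0.23, adjusted p = 0.22), whose second tested probe gave -0.09. Regulators of Afp and other fetal liver or yolk sac genes had a good flag more often, and 12 of 12 on the array were tested. None of the 12 passed in limma (0 at an unadjusted p under 0.05; median -0.18). H19, an imprinted fetal RNA, had a difference of -0.37 ± 0.19 (adjusted p = 0.251) and Gpc3, a glypican of fetal liver, -0.30 ± 0.16 (adjusted p = 0.268). Dlk1, a fetal membrane protein picked after its values were seen, read 39.9, 17.2 and 28.0 in C4, C3 and B1 and 39.6, 42.4 and 16.5 in H2, H3 and I2, with an r of 0.86 to Afp. The median r with Afp over the 12 genes was 0.39, and Igf2bp1, an RNA-binding protein of fetal tissue, was at -0.51.

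A further list held LXR and RXR genes with other nuclear receptors, Srebf1, Srebf2 and Scd1. Of its 11 tested genes, 1 fell and 0 rose (median -0.09). This was Rxra, the partner with which LXR binds DNA: it read 2.99, 2.31 and 2.34 in C4, C3 and B1 and 11.3, 4.25 and 8.48 in H2, H3 and I2, without overlap (-1.55 ± 0.32, limma adjusted p = 0.0324). A second Rxra probe gave -1.46. After normexp background correction the difference was -1.05 and narrowly missed the threshold (adjusted p = 0.0502). Nr1h3, which encodes LXR-alpha, was below the floor on all arrays, and no LXR gene was among the 11 tested.

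Of 22 tested genes of lipoprotein receptors, enzymes and transfer proteins, 1 rose and 1 fell (median -0.07). Abcg1, a cholesterol exporter and a known LXR target, read 1.20, 1.24 and 1.47 in C4, C3 and B1 against 2.96, 1.92 and 3.34 in H2, H3 and I2 (-1.04 ± 0.22, limma adjusted p = 0.0336), which became -0.48 with normexp (adjusted p = 0.0719). Abca1, the other main LXR-driven exporter, did not pass (0.04 ± 0.33, adjusted p = 0.954), nor did Lrp1, a receptor for ApoE (0.05 ± 0.15, adjusted p = 0.878). Angptl4, an inhibitor of lipoprotein lipase, rose by 3.46 ± 0.48 (adjusted p = 0.0168), while lipoprotein lipase itself, Lpl, did not pass (-0.51 ± 0.22, adjusted p = 0.177).

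The other apolipoproteins gave 0 calls among 9 tested (2 at an unadjusted p under 0.05 in limma; median -0.29). Saa3, an acute-phase apolipoprotein of macrophages and fibroblasts, read 71.7, 146 and 91.8 in C4, C3 and B1 and 38.6, 66.1 and 28.5 in H2, H3 and I2, without overlap but short of the threshold (1.24 ± 0.34, adjusted p = 0.0617). Apof gave -0.67 ± 0.25 (adjusted p = 0.132), Clu, which encodes apolipoprotein J, -0.47 ± 0.21 (adjusted p = 0.207) and Apod -0.29 ± 0.42 (adjusted p = 0.709).

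Iron handling around Trf showed 0 calls among 17 tested genes (3 at an unadjusted p under 0.05 in limma; median -0.05). The lowest p values belonged to Aco1 (0.46 ± 0.15, adjusted p = 0.0919) and Ireb2 (0.43 ± 0.17, adjusted p = 0.146), which encode the iron regulatory proteins. Tfrc, the transferrin receptor, gave 0.27 ± 0.17 (adjusted p = 0.361). Around Ttr, 1 of 4 tested carrier and hormone genes fell (median -0.34): Crabp2, an intracellular retinoic acid carrier, at 35.8, 27.3 and 31.8 against 57.9, 45.3 and 65.7 (-0.82 ± 0.19, limma adjusted p = 0.0394). Rbp4, which Ttr carries in plasma, did not pass (0.06 ± 0.19, adjusted p = 0.884).

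Some markers of other cells that can make apolipoproteins rose in deficient cultures. Of 18 tested macrophage markers, 3 rose and 0 fell (median 0.97): C1qa (2.00 ± 0.46, limma adjusted p = 0.0393), C1qb (1.85 ± 0.37, adjusted p = 0.0308) and Mrc1 (1.73 ± 0.37, adjusted p = 0.0336). Mrc1 had 1 good spot of 3 in wild-type cultures, at 0.388, 0.608 and 0.541 in H2, H3 and I2, so its difference depends on the floor. With normexp none of the 3 passed in limma: C1qa gave 1.23 (adjusted p = 0.0855), C1qb 1.27 (adjusted p = 0.0665) and Mrc1 0.62 (adjusted p = 0.117). C1qa also missed the threshold after quantile (adjusted p = 0.0618) and loess normalization (adjusted p = 0.0589). The summed level of the 25 markers on the array came to 100, 264 and 141 in C4, C3 and B1 and to 125, 79.2 and 53.1 in H2, H3 and I2. Of the 25, 3, namely Ptprc, Fcgr1 and Timd4, had a good flag in no culture. Macrophages make Apoe and Apoc1. C3 and B1, which had the highest sums, had the lowest Apoe, at 20.2 and 15.2. For Apoc1, C3 was the highest deficient culture, at 4.74, and B1 the lowest of all, at 1.28. The part of macrophages in the Apoe and Apoc1 levels was not tested.

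Of 16 erythroid markers on the array, 5 were tested and 0 passed in limma (1 at an unadjusted p under 0.05; median 0.18), with sums of 61.7 to 65.1 in deficient and 56.6 to 59.9 in wild-type cultures. Ermap gave 0.54 (adjusted p = 0.109) and Epb42 0.34 (adjusted p = 0.405). Of 8 tested neural and glial markers 1 rose, Tubb3, a neuronal tubulin (0.81 ± 0.18, adjusted p = 0.037; list median 0.24), with sums of 28.9 to 37 and 26.5 to 31.4. All 3 wild-type Tubb3 values were under the floor, at 0.565, 0.237 and 0.563 with 1 good spot, so the size of this difference is set by the floor: it was 0.26 with normexp (adjusted p = 0.131) and 0.04 with the floor doubled. Of 4 tested endothelial markers 0 passed (0 at an unadjusted p under 0.05 in limma; median 0.03), with sums of 10.9 to 11.3 and 9.08 to 11.1. Among the 20 fibroblast markers 2 rose, Thy1 (0.89 ± 0.22, adjusted p = 0.0492) and Lum (0.84 ± 0.19, adjusted p = 0.0369), and 0 fell (median 0.27). Neither call held with normexp (adjusted p = 0.109 and 0.0503), quantile (0.0883 and 0.0956) or loess normalization (0.0759 and 0.0878).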

How the data were processed

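Total RNA of 6 fibroblast cultures was labelled with biotin and hybridised to 1-colour CodeLink arrays of the mouse transcriptome, a separate array for each culture. CodeLink Expression Analysis 4.1.0.29054 quantified the spots, per the file headers. The deposited values are normalized intensity on a linear scale, median normalized per the labels. They come with a quality flag per spot. The labels also name a log2 step and the authors' selection, which combined a 2-fold ratio in either direction with a Student test, here the methods' t-test. The genome build is not given in the sources used here.

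Control spots (1260 of 36227) were left out and masked spots (105 to 177 transcript probes per array) treated as missing. Values under 0.57, the median over arrays of the 1st percentile of good spots, were set to 0.57 before log2, which understates differences of dim probes. The 19575 probes whose spots were all flagged good in 1 or both genotypes were fitted with limma 3.58.1 in R 4.3.3 (lmFit, eBayes, two-sided, Benjamini-Hochberg adjustment over all of them, threshold 0.05). In all, 1286 were called, 967 higher and 319 lower in deficient cells (75.2% higher, against 60.7% after quantile normalization). The fit was tested on simulated data. Each p-value measures the spread between 3 cultures per genotype, which limits the precision.

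Symbols came from the platform annotation (21615 probes with 1 symbol, 681 with several, which were not used). Of the former, 21487 matched RefSeq by gene ID. Symbols can be old. Promoter windows came from RefSeq GRCm38.p6. The members and the gene lists were chosen with earlier results of these data known. Named were all members, Ing1, up to 4 genes per list past the threshold or the 2 with the lowest p where none passed, the neighbours of Apoe-Apoc1 and Alb-Afp (of which Gm44805, Cox18 and Albfm1 had no probe used here), and the 5 genes most like Apoe, Trf and Afp by r of log2 levels. Genes of special interest outside this rule, such as Abca1, Lrp1, Lpl, Tfrc, Rbp4, Hp, Igf2bp1, Clu, Apod and Nr1h3, were chosen after their values were seen. Where a listed gene had several tested probes, the one of highest mean was used. Alternatives covered background correction, normalization, the floor, the flag filter, the variance model, array weights, the leading letter of the culture names as a random block (statmod 1.5.0), the methods' t-test and each array left out.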

Additional observations from a re-analysis of the deposited data

How the results depend on the processing

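The count of calls, 1286 over all probes and 1 among members, was 1286 with the series value table, 1471 with a variance trend and robust fitting and 1041 with a good flag required on all 6 arrays. It was 576 with normexp, 737 with quantile and 749 with loess normalization, 275 with a floor of 0.01, 191 with the floor doubled and 20 without the flag filter. The methods' t-test gave 7 after Benjamini-Hochberg adjustment and 605 unadjusted with the ratio. Array weights, where the estimate did not converge, gave 8160 (I2 had a weight of 13.03), and the leading letter as a random block 12901, with an estimated correlation of -0.89 within letters. These 2 fits are not read as support for any call. Leaving out 1 array gave 3 to 2610: 26 without C4, 386 without C3, 5 without B1, 3 without H2, 2610 without H3 and 8 without I2. The cause of these shifts was not tested.

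Member probes called numbered 0 with either other floor, without the flag filter and with the adjusted methods' t-test, 2 with array weights, 6 with the letter block and 0 to 1 with an array left out. Over the 19 alternatives the Apoe difference ran from -1.35 to -0.84 and kept its sign. It passed in 10 of them, those 2 fits included. Also among the 10 were the series value table, whose values are identical to the main input, and the unadjusted t-test with the ratio. Because Apoe was chosen with this contrast known, the count describes the processing only and is no support for a difference. Ttr (-1.70 to -0.44) and Apoc1 (-1.17 to -0.22) also kept their sign. The sign changed in 4 alternatives for Trf (-0.72 to 0.96), 2 for Ahsg (-0.99 to 0.98), 1 for Afp (-2.15 to 0.65) and 1 for Apoa1 (-0.04 to 0.88). Other called genes held in few fits with an array left out: 2 of 6 for Angptl4, C1qb and Mrc1, 1 for Rxra, Abcg1, Crabp2, Tomm40, Lum and Tubb3, and 0 for C1qa and Thy1. With normexp, Rxra, Abcg1, Tubb3, Mrc1, C1qa, C1qb, Thy1 and Lum no longer passed. With quantile or loess normalization, Tomm40, C1qa, Thy1 and Lum did not, and C1qa also missed with a variance trend. With either other floor, without the flag filter or with the adjusted methods' t-test, none of these genes passed except Angptl4 at a floor of 0.01. Those values kept their sign in all alternatives that gave one.

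No paired analysis was possible because the genotypes share only 1 replicate number. Signals under the floor, among them all of Apob and most of Apoa2, cannot be ordered.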
